A study of Mus musculus with 4 samples.

Results

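Divergent gene pairs that overlap at their 5′ ends were examined in RNA-seq counts of mouse T-helper 2 (Th2) cells. In such a pair a minus-strand gene and a plus-strand gene run away from each other and share some exon sequence where they start. The rule that defines them uses gene coordinates alone. The lowest start and the highest end of the minus gene both had to lie below those of the plus gene, with at least 1 bp of shared exon, and the shared exon had to be under 80% of the exon length of either gene. On chromosomes 1 to 19 this gave 1445 divergent pairs with 2845 distinct genes, out of 4498 opposite-strand pairs that share exon and 50600 annotated genes. No count enters the rule.

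The 4 libraries were replicates 1 to 4 of a single group, Th2 cells differentiated as primary cells of strain C57BL/6NJ and sorted at 72 h according to the file headers. No treatment, genotype or allele beyond the strain was given, and age and sex were not stated. The labels number them as biological replicates with a biosample each but a single donor entry, and nothing states whether separate animals were used. The p-values below therefore measure only the spread between these libraries, which may be partly technical. The deposited values were fragment counts per gene, counted with strand option 1, with totals of 1274431 to 1857433 per library. They were not taken as mRNA levels because the match between library orientation and counting strand was not tested.

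Head-to-head genes often start from a shared, CpG-rich promoter, from which RNA polymerase II initiates in both directions. Known examples join genes of one process, such as the chaperonin genes Hspd1 and Hspe1 or the purine synthesis genes Ppat and Paics, and many others join a coding gene to a noncoding RNA. Where the initiation sites lie past each other, both transcripts contain the stretch between them in opposite orientation, and only strand-specific counting can separate their reads.

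The members comprised 1772 coding genes, 1012 noncoding genes, 55 pseudogenes and 6 genes without a matched type. A coding gene faced a noncoding gene in 875 pairs and another coding gene in 444, while 70 pairs were noncoding on both sides and 56 held a pseudogene or an unmatched gene. Only 38 genes were in more than 1 divergent pair. The shared exon measured 1 to 2613 bp, with a median of 192 bp and quartiles of 102 and 356 bp. The label of a 5′ overlap held for most pairs, since the shared exon lay in the first 50% of the exon length of both members in 1325 of 1445 pairs (91.7%). In 119 pairs this was true of 1 member, and in 1 pair of neither. The pair of neither is Eftud2/Gm26668. Of the other pairs named below, 7 are among the 119, with the shared exon past the middle of Aldoa, Arhgdib, Gimap1os, Gm26672, Serf2, Gm47567 and Lingo4, the partner of Gm43401. At the edge of the rule, Gm23464/S100a3 lay inside with 79.6% shared and 0 counts in both members, and Nespas/Gm27849 lay outside with 80% shared and 13 and 1 counts.

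The smallest overlaps show how the members meet, and 5 of them are printed here in windows of 30 bases, plus strand, GRCm38 (mm10), with the shared exon in capitals. Aldoa/Fam57b was taken for its counts and the other 4 were chosen after their values were seen, so they do not represent short overlaps in general.
Aldoa/Fam57b, chr7:126797666-126797695: gaTGCCCTTGCCCGGAGCCACAATGCGgtg
Hax1/Gm19710, chr3:89998756-89998785: ccgtGCTCCTCAGACACGAAGCTTCtatac
Ndufs1/Eef1b2, chr1:63176815-63176844: ttggacctgcAGTTCCGCCggaagtagccg
Tmx2/Med19, chr2:84678638-84678667: tctacCTGATGCGGGAATTGCCAGgtgagt
Parp3/Rrp9, chr9:106475958-106475987: ctttcGTTTTGGAGCCATGGTTCTCctggg
The shared stretch is 25, 21, 9, 19 and 20 bp long in this order.

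Longer overlaps were searched on both strands for 6 promoter motifs. The GC box was taken as GGGCGG. The TATA box was taken as TATAAA. For ETS factors the search used CCGGAAG, and for the CCAAT box its own letters. For YY1 it used AAGATGGCG, and NRF1 was searched by its palindrome. No motif is contained in another. The shared exons of Psmb9/Tap1, Gm20496/Tap2, 0610040F04Rik/Bhlhe40, Surf1/Surf2 and Arhgdib/Pde6h were searched too and held none of the 6 motifs. The next windows of 30 bases lie inside the shared exon of pairs that held a motif and whose counts are described below. They are on the plus strand, with a motif or its reverse complement in capitals.
Gm43352/Lef1, chr3:131110763-131110792: tcccctcctcctCCGCCCctccccctccag
Gm17040/Cish, chr9:107296938-107296967: acccctggcacccATTGGctcctttctcct
Gm26885/Pim1, chr17:29491665-29491694: cCCAATggcacccgagtgcccatggaagtg
Hspd1/Hspe1, chr1:55088189-55088218: ttccgcctccggCCGCCCgcgtcggccccc
Gimap1os/Gimap1, chr6:48739281-48739310: aggcaaggggggCTTCCGGatgcgttagga
Btf3/Gm9828, chr13:98316677-98316706: gccccgggccagCCGCCCctggctcgccct
Ftl1/Gm10252, chr7:45459852-45459881: aggagcgctcctTTTATAgcatgttgaccc
Lef1, Hspd1 and Btf3 share a GC box with their partners here, Cish and Pim1 a CCAAT box, Gimap1 an ETS motif and Ftl1 a TATA box. These matches were sought over the whole shared exon, 1208 bp for Lef1, unlike the shares that follow. In the central 50 bases of the longest shared segment, GGGCGG was present in 11.2% of 1308 divergent pairs and 1.19% of 1177 convergent pairs, CCGGAAG in 1.68% and 0.170%, TATAAA in 0.459% and 3.31%, and CCAAT in 3.75% and 6.46%. In 618 nested pairs, which share 80% or more of a gene, the 4 shares were 5.34%, 0.647%, 1.78% and 7.44%. G+C content also differed between these groups, and its part in the motif shares was not tested. A match is a description of the letters and no evidence of binding.

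Shared segments of divergent pairs were rich in G+C and CpG. Over the 1308 pairs with a segment of at least 50 bases, the median G+C content was 63.3% (quartiles 57.0 and 69.3), against 47.1% (40.5 and 53.5) in the 1177 convergent pairs. The median ratio of observed to expected CpG was 0.790 against 0.278, and it exceeded 0.6 in 72.5% of divergent and 10.8% of convergent segments. The 618 nested pairs lay between, with a median G+C content of 51.1%, a median ratio of 0.346 and 25.6% above 0.6. Pairs with a ratio above 0.6 also carried more counts, a median of 249 per pair over 948 pairs, against 32.5 over the other 360. A pair of noncoding examples, chosen after their values were seen, shows both kinds in full, plus strand, with every CpG in capitals.
Gm44238/Lockd, chr6:134929092-134929251: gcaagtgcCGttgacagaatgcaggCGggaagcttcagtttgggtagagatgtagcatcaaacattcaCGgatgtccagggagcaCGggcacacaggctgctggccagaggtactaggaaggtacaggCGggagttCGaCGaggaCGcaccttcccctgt
Gm47566/Gm47567, chr12:98279465-98279661: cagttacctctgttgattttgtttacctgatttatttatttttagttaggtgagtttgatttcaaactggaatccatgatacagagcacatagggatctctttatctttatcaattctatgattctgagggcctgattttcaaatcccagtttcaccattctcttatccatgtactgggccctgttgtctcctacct
The first has 8 CpG in 160 bases and the second 0 in 197 bases.

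Promoter windows from RefSeq (GRCm38.p6), 250 bases before to 50 after a start, matched 1789 of the 2845 members by symbol. The GC box was present in 58.1% of the windows of coding members and 48.4% of those of all coding genes, CCGGAAG in 17.8% and 12.1%, AAGATGGCG in 3.05% and 1.91%, and TATAAA in 7.60% and 12.1%. The shares were close for CCAAT, 36.6% and 37.5%, and for the NRF1 motif, 1.55% and 1.39%. For noncoding members GGGCGG was present in 39.0% of windows and in 21.7% over all noncoding genes. Members of convergent pairs were similar to divergent members, with GGGCGG in 55.5% and 53.9% of their windows. The 250 bases upstream of Btf3 and Ftl1 lie beside the overlap with their noncoding partners Gm9828 and Gm10252. They are printed on the minus strand, in the direction of Btf3 and Ftl1, with motifs in capitals.
Btf3, chr13:98317007-98317256: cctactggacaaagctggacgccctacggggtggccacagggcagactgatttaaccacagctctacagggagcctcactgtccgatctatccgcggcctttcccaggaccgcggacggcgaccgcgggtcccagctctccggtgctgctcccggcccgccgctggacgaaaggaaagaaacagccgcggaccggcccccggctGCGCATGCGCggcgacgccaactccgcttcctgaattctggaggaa
Ftl1, chr7:45459887-45460136: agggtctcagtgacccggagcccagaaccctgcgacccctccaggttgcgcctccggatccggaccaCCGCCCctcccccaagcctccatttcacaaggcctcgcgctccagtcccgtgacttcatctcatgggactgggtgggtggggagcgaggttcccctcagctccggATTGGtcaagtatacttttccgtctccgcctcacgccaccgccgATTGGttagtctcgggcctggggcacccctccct
Btf3 has an NRF1 motif there, which 1.39% of all coding gene windows hold, and Ftl1 a GC box and a pair of CCAAT boxes. Upstream windows of other members were searched too and are not printed, and those of Mt2 and Pycard held no motif.

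Across the series, the members held 18.9%, 21.3%, 20.9% and 18.5% of all counts in replicates 1 to 4. Of the 2845 members, 2085 had at least 1 count, 760 had none, and 1356 reached a mean count of 10. Counts were present for 6 of 6 T cell markers (Cd2, Cd3d, Cd3e, Cd3g, Cd4, Cd5) and for 6 of 6 Th2 markers (Il4, Il5, Il13, Gata3, Ccr4, Ccr8). Their sums ran from 113 to 599 and from 193 to 497 counts per library, lowest in replicate 3 and highest in replicate 4 for both. Single markers did not all have this order. Il13 had 150, 62, 40 and 208 counts in replicates 1 to 4, but Il4 had 104, 110, 84 and 64, lowest in replicate 4. Cd3e was lowest in replicate 2, with 17. Of 10 markers of other cells, 8 were at 0, among them Cd8a, Cd8b1, Ms4a1, Lyz2, Itgam, Ncr1 and Klrb1c, while Cd79a had 2 to 41 counts and Csf1r 542 to 827. Csf1r has an opposite exon, as do Cd3e, Gata3 and Il5. In bulk RNA, fewer cells of a type and less RNA per cell cannot be told apart.

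Noncoding genes in divergent pairs carried counts far more often than noncoding genes without an opposite exon, but less often than those in convergent pairs. A mean count of at least 10 was reached by 432 of 1012 noncoding members (42.7%), against 25 of 786 (3.18%) noncoding genes that stand head to head within 1 kb of another gene without shared exon, and 211 of 12985 (1.62%) with no opposite exon at all. For coding genes the shares were 51.2% of 1772 members, 37.4% of 1703 neighbours and 20.7% of 16388 genes with no opposite exon. Nested members, with 1 gene inside the other, had shares close to the divergent ones, 39.2% of 586 noncoding and 44.4% of 457 coding genes. Convergent pairs, which overlap at their 3′ ends, had higher shares, 52.1% for noncoding and 69.0% for coding genes. These are counts of genes, given without a test. They rest on the counting strand, whose match to the libraries was not tested, and are not taken as levels of transcription.

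**Figure D1:**
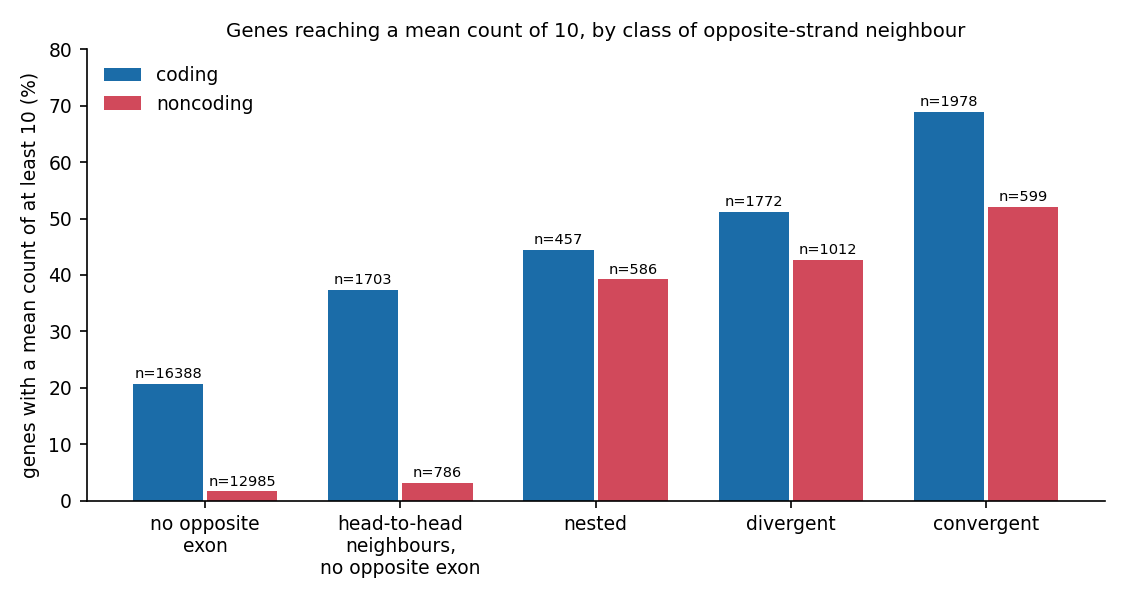
Share of genes whose mean count over the 4 libraries reached 10 (vertical axis, percent), for coding and noncoding genes in 5 classes of opposite-strand neighbour, with the number of genes above each bar. Noncoding genes stand at 42.7% in divergent pairs and at 3.18% among head-to-head neighbours without an opposite exon. A gene can be in more than 1 class. The match of the counting strand to the libraries was not tested.

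Per length, divergent members had the second highest median of the 5 classes, below convergent members. A gene can be in more than 1 class, and 552 of the 1445 divergent pairs have a member with another opposite gene. Another 1112 pairs, with 1 gene within the span of the other but under 80% shared, are not a class here. The median level over all 2845 members was 1.36, 0.995, 0.806 and 1.52 counts per 1000000 (CPM) per kb of exon in replicates 1 to 4, a mean of 1.17 ± 0.328 (SD, n = 4). The same mean was 4.50 ± 0.918 for convergent and 0.242 ± 0.148 for nested members, and the median was 0 both for head-to-head neighbours and for genes with no opposite exon. Coding and noncoding members differed in how the libraries were ordered. The median coding member had 1.60, 0.993, 0.830 and 1.96 CPM per kb in replicates 1 to 4, highest in replicates 1 and 4, and the median noncoding member 0.744, 1.36, 0.910 and 0.501, lowest in those. Members of pairs without any other opposite gene had a median of 0.644 CPM per kb. Among members with at least 1 count the median was 3.86 CPM per kb. Over all kinds of gene together, the share of a gene that was shared with its partner had little relation to its count. In 893 pairs without another opposite gene, Spearman's correlation across 1786 genes was -0.03 between the shared share and the mean count and 0.08 between shared length and mean count, given as descriptions. By kind the values went different ways. Noncoding genes reached a mean count of 10 in 31.5%, 38.8% and 45.2% with up to 10%, 10 to 25% and 25 to 50% shared. Coding genes did so in 46.4%, 45.9% and 34.4%. Above 50% shared it was 27.3% of 44 noncoding and 31.6% of 19 coding genes, and these shares were not tested.

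Most divergent pairs with enough counts to test differed between their members. Of the 1008 pairs with at least 20 counts, 751 (74.5%) differed between the members in counts per kb by edgeR's quasi-likelihood test with Benjamini-Hochberg adjustment at 0.05 over all 3145 pairs tested. Among the opposite-strand pairs that are not divergent 78.8% passed, so the divergent share is close to the background. The plus member was denser in 380 pairs and the minus member in 371. The median absolute difference was 4.26 on the log2 scale over the 1008 pairs, against 5.08 over the other pairs, and 509 of the called pairs differed more than 16-fold. The same member was denser in 4 of 4 libraries in 742 of the 751 pairs, and the 4 values of both members did not overlap in 731. Of the 1683 called pairs that are not divergent, these numbers were 1662 and 1643, and 1225 differed more than 16-fold. Such agreement between libraries is nearly fixed by taking called pairs, so nothing particular to divergent pairs follows from it. One member was at 0 in all libraries in 119 of the 1008 pairs, and in 210 of the 2137 others tested. A further 178 pairs had 1 to 19 counts and 259 had none, and these were not tested.

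**Figure D2:**
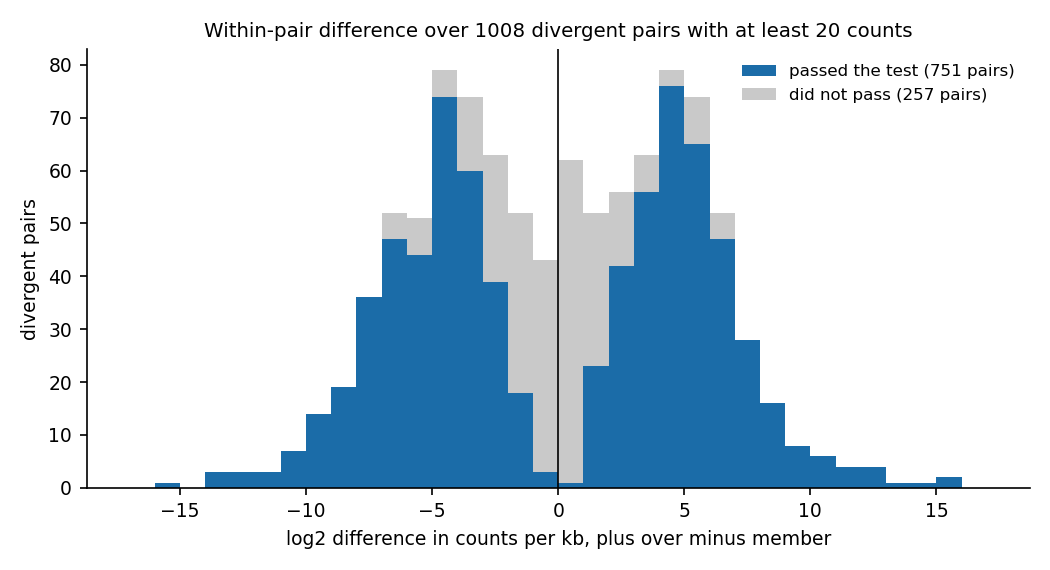
Histogram of the log2 difference in counts per kb, plus over minus member (horizontal axis), over the 1008 divergent pairs tested (vertical axis, pairs), with the 751 pairs that passed the test in colour and the other 257 in grey. The pairs that passed spread to both sides, 380 with the plus member denser and 371 with the minus member denser.

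On the strand that was counted, the noncoding member was usually the denser of the pair. Of 563 tested pairs with a coding and a noncoding member, the noncoding one was denser in 374 (66.4%), the coding one in 57, and 132 did not pass. In the other opposite-strand pairs of this kind the noncoding member was denser in 77.4%. The median log2 difference, noncoding over coding, was 4.27 in divergent pairs and 5.97 in the others. Between a pair of coding genes, 281 of 393 pairs passed (71.5%), against 72.7% in the others, with a median absolute log2 difference of 3.21. In pairs where neither member has another opposite gene, 387 of 558 passed, and the noncoding member was denser in 209 of 321. Which member is denser, here and in every pair below, rests on the counting strand, whose match to the libraries was not tested, and counts on the other strand were not analysed here.

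Among T cell and immune genes, 7 of the 121 in the list were in divergent pairs, 1 denser than its partner, 5 less dense and 1 not called. Over all 1008 pairs tested 74.5% passed, each with 1 denser and 1 less dense member, so nothing particular to this list or those below follows from such counts. Psmb9 and Tap1 are partners within the list and give 1 call of each kind. Pim1 (chromosome 17), a serine/threonine kinase induced by cytokine signalling, faces the antisense RNA gene Gm26885, with 468 bp shared. Gm26885 had 2888, 3865, 2434 and 1636 counts in replicates 1 to 4 and Pim1 had 100, 32, 33 and 56. The libraries did not overlap, and per kb Gm26885 was 76.5 times as dense (log2 difference, plus over minus, -6.33 ± 0.53 SE, adjusted p = 3.95e-05). Cish, which encodes a feedback inhibitor of cytokine receptors of the SOCS family, had 56, 54, 39 and 65 counts, and its partner Gm17040, a transcribed pseudogene, 1494, 1850, 1396 and 782. That is 144.0 times as many per kb for Gm17040 (log2 difference -7.13 ± 0.47, adjusted p = 2.64e-05). Cish also overlaps Gm17041, which lies within it on the other strand and had 22616 counts in all.

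Lef1 (chromosome 3), a transcription factor of T cell development and memory, shares 1208 bp with the antisense gene Gm43352. Gm43352 had 646, 964, 616 and 382 counts in replicates 1 to 4 and Lef1 81, 69, 53 and 58. Lef1 was thus nearly level across libraries and below its partner in each, with a log2 difference of -4.78 ± 0.39 (adjusted p = 3.8e-05). Bhlhe40, a transcription factor that shapes cytokine output of T cells, had 147, 46, 33 and 151 counts, high in replicates 1 and 4, beside 1526, 2416, 1636 and 1284 for 0610040F04Rik (log2 difference -5.55 ± 0.64, adjusted p = 0.000138). Mt2, a metallothionein gene that binds zinc and copper, had 4, 3, 14 and 18 counts and its antisense partner Gm45774 2373, 3695, 1701 and 1957 (log2 difference -5.88 ± 0.69, adjusted p = 0.000152). The pairs of Pim1, Bhlhe40 and Mt2 were chosen after their values were seen.

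Antigen processing genes gave both small and large differences. Psmb9, a catalytic subunit of the immunoproteasome, and Tap1, a subunit of the peptide transporter of the endoplasmic reticulum, face each other over 212 bp. Psmb9 had 142, 218, 133 and 122 counts and Tap1 58, 43, 47 and 39, and Psmb9 was denser by 2.27 ± 0.44 on the log2 scale (adjusted p = 0.00186). Both partners had counts in every library, and Psmb9 was above Tap1 in each. Tap2, the other transporter subunit, had only 47, 15, 21 and 34 counts beside 6308, 8168, 6556 and 4290 for Gm20496, which also shares 186 bp with Psmb8 at its other end. Tap2 also overlaps Gm15821, which had 6706 counts in all. Per kb the gap to Gm20496 was the widest of the immune list, -10.32 ± 0.61 on the log2 scale (adjusted p = 2.64e-05). Il6ra, the ligand-binding chain of the interleukin 6 receptor, had 68, 69, 60 and 68 counts and its shorter antisense partner Gm42809 41, 103, 48 and 47. Raw counts of that pair overlapped, but per kb Gm42809 was denser by 2.67 ± 0.51 (adjusted p = 0.00182). Nlrc5, a transactivator of class I genes, had a mean of 11 counts and 9330175E14Rik one of 21.25. Their log2 difference of -1.86 ± 1.16 did not pass this test (adjusted p = 0.171), and at so few counts a difference can be missed.

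**Figure D3:**
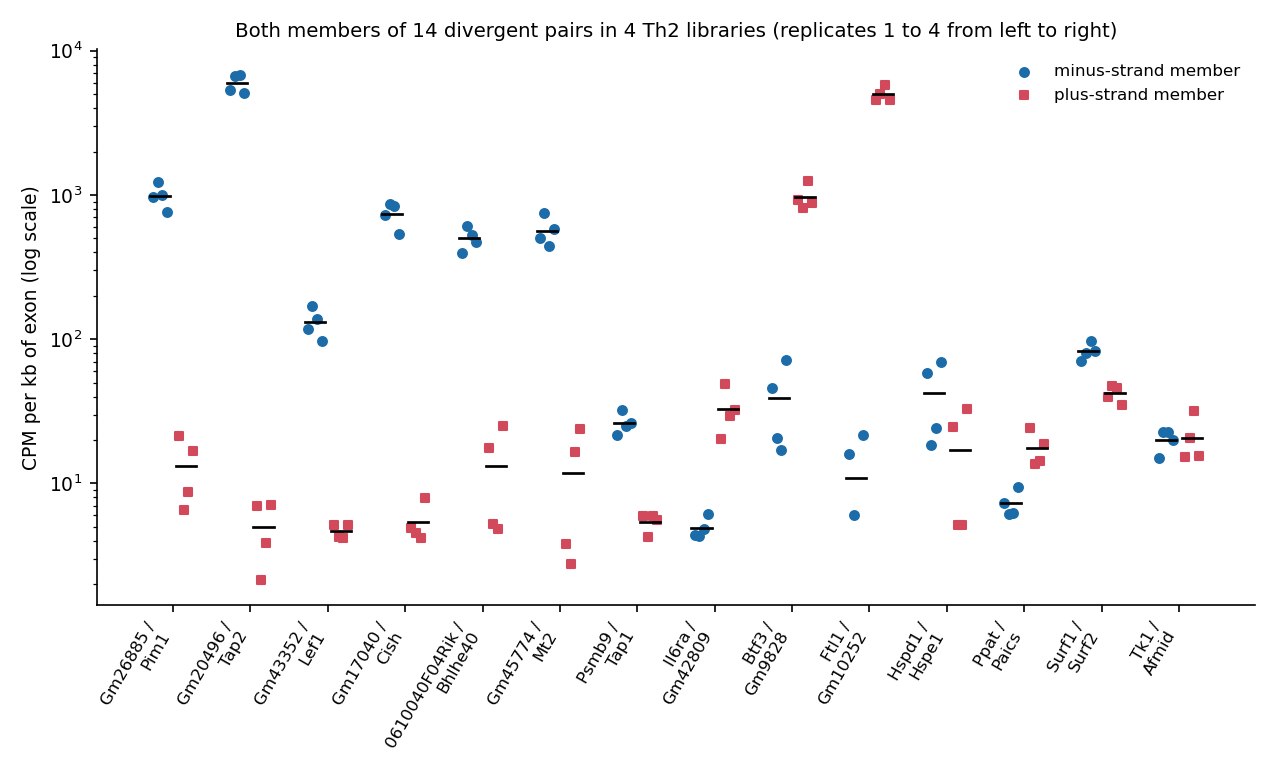
CPM per kb of exon (vertical axis, log scale) for the minus-strand member (circles) and plus-strand member (squares) of 14 divergent pairs, 1 point per library and a line at the mean of the 4 libraries. Ftl1 in replicate 3 is at 0 and not drawn. Gm26885, Gm20496, Gm43352 and Gm17040 lie above Pim1, Tap2, Lef1 and Cish in every library, while the values of Tk1 and Afmid overlap.

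Gimap1, a GTPase needed for lymphocyte survival, was 1 of the 5 pairs with the most counts on both members. It had 507, 759, 473 and 395 counts and Gimap1os, on the other strand, 922, 1192, 1025 and 605. The difference was small, -0.80 ± 0.29 on the log2 scale (adjusted p = 0.0346), and it did not pass without any 1 library (adjusted p from 0.0523 without replicate 4 to 0.137 without replicate 3). Slirp, which encodes an RNA-binding protein of mitochondria, had 3369, 3197, 2746 and 2218 counts and the demethylase gene Alkbh1 875, 1076, 925 and 762 (log2 difference 2.74 ± 0.30, adjusted p = 0.000107). Erp29, an endoplasmic reticulum chaperone gene, and Tmem116 were indistinguishable per kb, at 111 ± 10.2 and 115 ± 19.9 CPM per kb (SD, n = 4) and an adjusted p of 0.913. Fuz, a planar cell polarity gene, had 1325, 1544, 1120 and 773 counts and D7Bwg0826e 337, 473, 398 and 285, a log2 difference of 1.25 ± 0.29 (adjusted p = 0.00498). Each of these 4 pairs includes a gene with another opposite-strand neighbour.

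The 10 pairs with the highest summed CPM each had most of their counts on 1 side. Ftl1, the ferritin light chain that stores iron, had 38, 15, 0 and 37 counts and Gm10252 6792, 7758, 6930 and 4859. Btf3, a subunit of the nascent polypeptide-associated complex, had 141, 67, 43 and 160 counts, low in replicates 2 and 3, and Gm9828 4223, 3872, 4589 and 2860. Neither pair overlapped in any library, and the log2 differences were 9.25 ± 1.09 for Gm10252 over Ftl1 (adjusted p = 0.000149) and 4.84 ± 0.53 for Gm9828 over Btf3 (adjusted p = 0.000106). Gm26518 had 4498, 6150, 4864 and 3507 counts and Pcbp2, a poly(C)-binding protein gene, 351, 210, 180 and 233. Pcbp2 also shares 1571 bp with Map3k12 at its 3′ end, which had 26092 counts in all.

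Other pairs of these 10 had a coding or a noncoding gene on the high side. Pde6h, a phosphodiesterase subunit of cone photoreceptors, had 7994, 9927, 7018 and 5358 counts, and Arhgdib, an inhibitor of small GTPases abundant in blood cells, 152, 89, 63 and 187. Arhgdib and Pde6h have no other opposite gene, and the 136 bp shared lie past the middle of Arhgdib. Fam57b had 9243, 12401, 8967 and 5586 counts beside 560, 214, 169 and 450 for Aldoa, the glycolytic aldolase, although the pair shares only the 25 bp printed above. The log2 differences were 3.84 ± 0.46 for Pde6h (adjusted p = 0.000169) and 4.75 ± 0.54 for Fam57b (adjusted p = 0.000126). Mettl23, a methyltransferase gene, had 5939, 5320, 4603 and 3657 counts and the hydroxylase gene Jmjd6 112, 81, 62 and 58, and Mettl23 also shares 460 bp with Srsf2. Gm26582 had 6620, 6862, 5480 and 4666 counts beside 5, 5, 0 and 6 for the kinase gene Cdkl2, and it shares 2050 bp with G3bp2 at its other end.

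The largest differences had a member at 0 in all libraries, for which the fold is a lower bound set by 3 counts over the 4 libraries together. Wdr38 had 5710, 7703, 6141 and 3981 counts and Gm13496 none, at least 3183-fold higher per kb. Gm16933 had 4044, 4624, 4117 and 3371 and the protease gene Htra4 none, at least 5969-fold higher. Both dense members face a further gene on the other strand, Rpl35 over 821 bp for Wdr38 and Plekha2 over 959 bp for Gm16933. Plppr3 had 2761, 3730, 2506 and 1625 counts and Prtn3, a protease of neutrophil granules, none, at least 1407-fold higher for Plppr3. Hyls1, a gene of centriole function, had 1417, 1485, 1217 and 965 counts and Pate2 none, at least 1340-fold higher. Gm47566, whose CpG-free overlap is printed above, had 1656, 2072, 1563 and 1642 counts and Gm47567 none, at least 11503-fold higher. The dense members Gm2245, Gm43401, Far2 and 1700084C06Rik completed the set, the last facing both Raver1 and Gm38431 at 0. Every dense member of these 10 pairs shared exon with a further gene on the other strand that had counts, and the part of that gene in the gap was not tested.

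Textbook bidirectional pairs ranged from no measurable difference to a clear one. Of 20 such pairs listed, 8 met the rule. Hspd1, the mitochondrial chaperonin, had 274, 90, 93 and 233 counts and Hspe1, its co-chaperonin, 65, 14, 11 and 62. Both members were high in replicates 1 and 4, and Hspd1 was denser by 1.57 ± 0.43 on the log2 scale (adjusted p = 0.011). Ppat had 58, 50, 40 and 53 counts and Paics 135, 80, 65 and 75, with Paics denser by 1.27 ± 0.45 (adjusted p = 0.0323). Without replicate 1, 2 or 3 this pair did not pass (adjusted p = 0.129, 0.092 and 0.0743). Surf1, an assembly factor of cytochrome c oxidase, had 222, 260, 248 and 184 counts and Surf2 240, 301, 227 and 153. Surf1, the shorter gene, was denser by 0.98 ± 0.34 on the log2 scale (adjusted p = 0.0286). Without any 1 library the adjusted p was 0.0735 to 0.09, and without the length offset the difference was -0.02. Tk1, a thymidine kinase of S phase, and Afmid did not differ by this test, at 20.1 ± 3.69 and 20.7 ± 7.68 CPM per kb (SD, n = 4, adjusted p = 0.998).

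Other textbook pairs were further apart or without counts. Hars2, the mitochondrial histidyl-tRNA synthetase, had 403, 661, 467 and 291 counts and the cytosolic Hars 74, 16, 7 and 22 (log2 difference 3.23 ± 0.68, adjusted p = 0.00298). The basement membrane collagens Col4a1 and Col4a2 had 0 counts in every library. Psmb9/Tap1, described above, is also among the 8.

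Of 12 genes of the ribosome and translation, 8 were the denser member, 2 less dense and 2 not called, with 1 call of each kind fixed because Hars and Hars2 are both in the list. Eef1b2, an elongation factor subunit, had 426, 124, 80 and 449 counts and Ndufs1 of respiratory complex I 41, 13, 3 and 19, with 9 bp shared and a log2 difference of 5.58 ± 0.52 (adjusted p = 5.66e-05). Rpl12 had 754, 252, 319 and 571 counts and Lrsam1 17, 2, 0 and 8 (log2 difference 7.04 ± 0.74, adjusted p = 8.76e-05). Rps18 had 675, 346, 202 and 465 counts, Vps52 15, 19, 0 and 26. Eef1b2, Rpl12 and Rps18 thus had their highest counts in replicates 1 and 4. Rps25 had 1260, 919, 667 and 880 counts beside 51, 62, 85 and 76 for the trafficking gene Trappc4, a log2 difference of 3.61 ± 0.40 (adjusted p = 0.000117).

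Mitochondrial genes were the largest list in divergent pairs, with 29 members, of which 10 were denser than the partner, 16 less dense and 3 not called. Hspd1/Hspe1, Mrpl47/Ndufb5 and Mrpl46/Mrps11 lie wholly within the list and give 3 of the calls in each direction. Mrpl47, of the large mitochondrial ribosomal subunit, had 2000, 2065, 1638 and 1321 counts and Ndufb5 of complex I 13, 6, 0 and 41 (log2 difference -7.68 ± 1.02, adjusted p = 0.000267). Mrpl46 and Mrps11, a mitochondrial ribosomal protein gene on either side, had 298, 285, 245 and 199 against 22, 3, 0 and 3 counts (log2 difference -6.49 ± 0.91, adjusted p = 0.00036). One member of a pair with related functions thus held nearly all counts. Mrps7 had 536, 405, 446 and 374 counts, and Gga3, a trafficking adaptor, 44, 65, 26 and 13. Atp5j of ATP synthase and Gabpa, an ETS transcription factor, had 207, 225, 146 and 163 and 593, 673, 562 and 374 counts, and per kb they did not pass the test (log2 difference 0.70 ± 0.32, adjusted p = 0.075).

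The remaining lists were divided. Of the DNA replication, repair and cell cycle genes in divergent pairs, 3 of 16 were denser, 7 less dense and 6 not called. Mcm7, a subunit of the replicative helicase, had 129, 97, 74 and 122 counts and Ap4m1 932, 1328, 832 and 686 (log2 difference 2.87 ± 0.37, adjusted p = 0.00023). For ubiquitin and proteasome genes the numbers were 2 denser, 5 less dense and 4 not called of 11. Ube2d3, a ubiquitin-conjugating enzyme, had 82, 33, 17 and 117 counts beside 397, 571, 337 and 216 for 4930539J05Rik (log2 difference -6.76 ± 0.78, adjusted p = 0.000135). The 16 chromatin and transcription genes formed 17 pairs, 3 with the listed gene denser, 7 with it less dense and 7 not called. Ctcf, which anchors chromatin loops, had 81, 49, 75 and 56 counts, less dense than Agrp (log2 difference -2.33 ± 0.53, adjusted p = 0.00418), though without the length offset the difference was -0.08. Ctcf was denser than its other partner Gm5914, which had a mean of 1.25 counts (log2 difference 2.53 ± 0.92, adjusted p = 0.0346).

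Particl and Gm11508 are noncoding members that were denser than a coding partner, in pairs chosen after their values were seen. Particl, a promoter-derived RNA of the methionine adenosyltransferase gene Mat2a, had 798, 945, 622 and 509 counts and Mat2a 81, 46, 38 and 110. Gm11508 had 1190, 1382, 1093 and 633 counts and Srsf1, a splicing factor, 149, 70, 72 and 177. Both coding genes were high in replicates 1 and 4, and both log2 differences were large, 5.00 ± 0.50 for Particl over Mat2a (adjusted p = 7.49e-05) and -6.97 ± 0.58 for Srsf1 over Gm11508 (adjusted p = 3.9e-05). Lockd, an RNA made next to Cdkn1b, had 11, 5, 7 and 10 counts, below 264, 425, 343 and 195 for Gm44238.

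The short overlaps printed above passed the test in 5 of 5 pairs, of which 4 were chosen after their values were seen. Gm19710 had 943, 1394, 986 and 853 counts beside 31, 24, 5 and 27 for the apoptosis regulator Hax1. Rrp9, of ribosomal RNA processing, had 155, 185, 143 and 91 counts and Parp3 37, 18, 8 and 27. Med19, of the Mediator complex, and Tmx2 were closest, with 119, 118, 101 and 131 and 65, 74, 45 and 21 counts and a log2 difference of 1.49 ± 0.52 (adjusted p = 0.0297), which did not pass without any 1 library (adjusted p from 0.0511 without replicate 2 to 0.0826 without replicate 4). The share of tested pairs that passed rose with the shared length, from 57.9% of 95 pairs with 1 to 50 bp to 73.2% of 437 with 51 to 200 bp, 78.1% of 351 above 200 and up to 500 bp and 81.6% of 125 above 500 bp. In pairs without another opposite gene the shares were 49.0%, 64.8%, 77.1% and 75.6%. Over all divergent pairs of each class, tested or not, the median pair count was lowest in the shortest class too, 84.5 against 146, 234 and 134. Its part in the order was not tested.

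**Figure D4:**
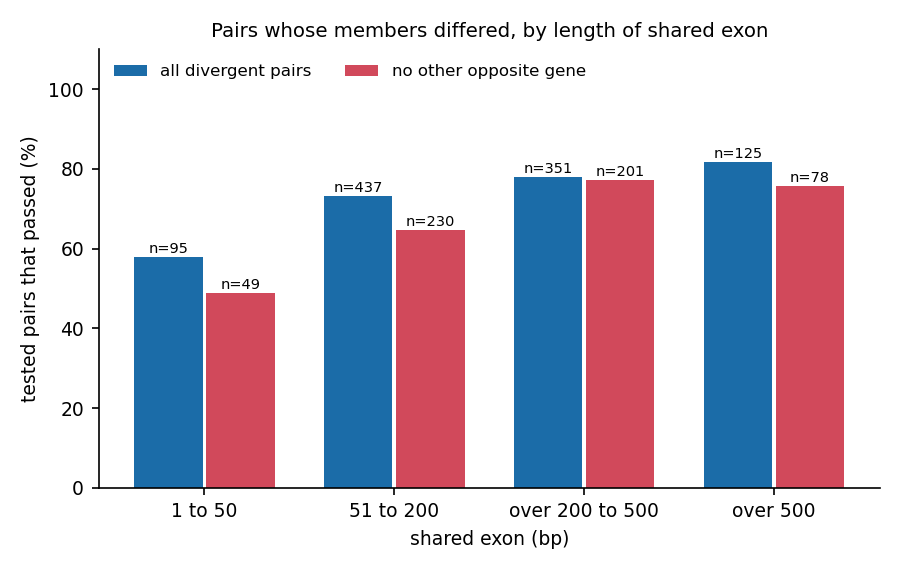
Share of tested divergent pairs whose members differed in counts per kb (vertical axis, percent) in 4 classes of shared exon length (horizontal axis, bp), for all pairs and for pairs without another opposite gene, with the number tested above each bar. The share is lowest at 1 to 50 bp, 57.9% and 49.0%.

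The 5 longest overlaps among pairs with at least 20 counts shared 2235 to 2613 bp, and in 3 of them, those of Eftud2, Serf2 and Gm26672, the shared exon was not in the first 50% of both members. Kctd18 had 1171, 1463, 1187 and 836 counts and Sgo2a, a protector of centromeric cohesion, 15, 4, 0 and 17 (log2 difference -6.41 ± 0.89, adjusted p = 0.000335). Gm26668 had 708, 772, 653 and 453 counts and the spliceosomal GTPase gene Eftud2 66, 25, 10 and 90 (log2 difference 5.32 ± 0.71, adjusted p = 0.000282). Serinc4 had 1184, 1295, 883 and 805 counts and Serf2 45, 16, 14 and 56, and Gm26672 had 10 to 44 counts while Pcdhga10 had none. Pcdh7 and 4932441J04Rik, with 0 to 10 counts per library, did not pass the test (adjusted p = 0.0696), but did by DESeq2 and with no library block (adjusted p = 0.0354 and 0.0205).

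Counts on the less dense member were not spread evenly over the libraries. With the less dense member of each pair set from the other 3 libraries, it held 9.61%, 6.18%, 6.70% and 11.5% of the counts of the 1008 pairs in replicates 1 to 4. In the 558 pairs without another opposite gene the shares were 11.9%, 6.41%, 6.84% and 15.5%, and in convergent pairs 11.4%, 9.90%, 9.86% and 12.4%. Replicates 1 and 4 were thus above replicates 2 and 3 in each class. Coding members named above went both ways. Hspd1 had 154, 48.5, 64.3 and 183 CPM in replicates 1 to 4 and Eef1b2 239, 66.8, 55.3 and 352. The dense members Wdr38, with 3207, 4147, 4247 and 3124, and Kctd18, with 658, 788, 821 and 656, had the opposite order. Library totals were highest in replicates 1 and 2, and the summed T cell markers highest in replicates 1 and 4 (575, 250, 113 and 599 counts in replicates 1 to 4). Their part in this order was not tested.

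**Figure D5:**
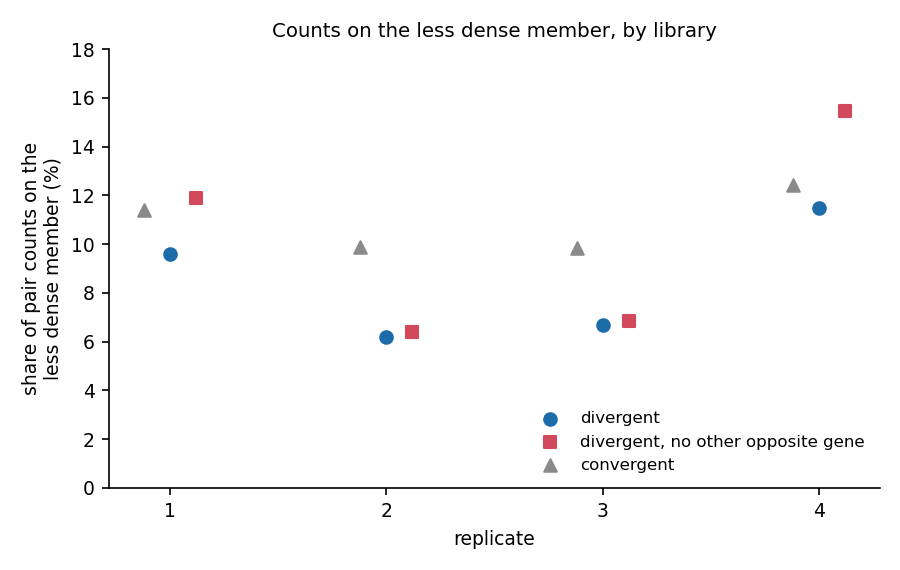
Share of the counts of tested pairs that lay on the less dense member (vertical axis, percent) in replicates 1 to 4, for divergent pairs, divergent pairs without another opposite gene and convergent pairs. In divergent pairs the shares are 9.61% and 11.5% in replicates 1 and 4 and 6.18% and 6.70% in replicates 2 and 3.

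Levels of both members moved together across pairs. Spearman's correlation between the mean CPM per kb of the minus and plus member was 0.57 over 893 divergent pairs without another opposite gene, 0.47 over 815 convergent pairs of the same kind and 0.35 over 1053 head-to-head neighbours with no opposite exon. These describe pairs that share libraries and depth, and many members are at 0.

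Most members varied between replicates beyond counting error, as did genes in general. Among the 1356 members with a mean count of at least 10, 1184 (87.3%) exceeded Poisson sampling by a chi-square test at an adjusted p of 0.05, against 88.2% of all 7752 genes of that level. A comparison of each library with the other 3 by edgeR's quasi-likelihood test called 0 members and 0.0516% of all genes. At an unadjusted p under 0.05 it gave 4, 24, 50 and 87 members for replicates 1 to 4, and DESeq2 also called 0 members. With a lone library assumed to vary like the other 3, a count of 0 here says nothing about stability.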

How the data were processed

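The deposited values were raw fragment counts per gene, used as the authors gave them. Per the file headers, featureCounts 1.4.6-p4 counted paired fragments over exons of GENCODE M13 (mm10) with strand option 1 and both ends mapped, after STAR (version not given in the sources used here). All libraries form 1 group by their labels.

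From these counts, exon overlaps were computed from the coordinates in the files. Symbols and types came from GENCODE M21, in which 50376 of 50600 identifiers matched. CPM used the total count, and CPM per kb the exon length. Within-pair differences were fitted with edgeR 4.0.16 (R 4.3.3): a row for each opposite-strand pair with at least 20 counts, a minus and a plus column per library, library as a block (both columns of a library come from the same sample), and an offset of TMM-scaled total times exon length, adjusted by Benjamini-Hochberg at 0.05. Spread between replicates was tested by chi-square and by edgeR, with a mean count of at least 10. DESeq2 1.42.0 was an alternative. Sequences came from GENCODE M21 transcripts and RefSeq promoter windows, with Python 3.11.15.

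On simulated counts of 3145 pairs at a coefficient of variation of 0.3, the within-pair test recovered 25.5% of 200 changed pairs at 2-fold, 93.5% at 4-fold and 100% at 16-fold. Observed variation was wider, a common coefficient of 0.579, so these shares do not carry over to the data and small differences can be missed. At few counts large ones can be missed too. Tet2 and Gm42567 had means of 21.5 and 0 counts. Their log2 difference of 6.47 did not pass the within-pair test (adjusted p = 0.233). Counting at these depths sets a limit of 3 counts for a gene at 0, for counting error only.

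The members and gene lists were chosen with earlier results of these data known. Named pairs were the 10 of highest summed CPM, the 5 largest called differences in each direction, the 5 with most counts on both members, the 5 longest overlaps, up to 6 genes per list and the textbook pairs. Pairs said to be chosen after their values were seen fall outside this rule. Some list members that the rule takes are given only in counts, and some results of the rule are not reported here. Alternatives were other size factors, DESeq2, no filter, no block, no length offset, subsets of pairs and leaving out each library.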

Additional observations from a re-analysis of the deposited data

Results flagged for a closer look

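Named members with at least 40 counts were checked for a library far from the other 3, by the gap to the nearest value over the whole range. Of 132 checked, 4 stood out, and chance alone gives about 1 in 20. Dhx30, an RNA helicase gene paired with Smarcc1, had 23.5 CPM in replicate 4 against 9.68 to 11.2 in the others. Jmjd6, paired with Mettl23, had 62.9 CPM in replicate 1 against 42.9 to 45.5. Med19, paired with Tmx2, had 102.8 CPM in replicate 4 against 63.5 to 69.8. Mrps7, paired with Gga3, was lowest in replicate 2, at 218.0 CPM against 293.5 to 308.4.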

How the results depend on the processing

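The number of divergent pairs that differed between members was 751, and it was 751 with DESeq2 size factors, 800 with DESeq2, 736 without the count filter, 714 without the length offset and 699 with at least 50 bp shared. With no replicate block it was 824, and all 751 pairs kept their call. Leaving out a library gave 643 to 727, and 628 of the 751 kept call and direction in each of these, with 0 turns of direction. It fell to 386 of 558 pairs when members with another opposite gene were left out. Fewer pairs were tested there, and the share that passed was also lower, 69.2% against 74.5%. Restricted to overlaps in the 5′ part of both members, a choice made after seeing the data, it was 693 of 937. Members beyond Poisson sampling were 1184, 1195 with DESeq2 size factors, 1564 without the filter and 1010 to 1113 without a library. The median member level of 1.17 CPM per kb became 0.644 in pairs without another opposite gene and 3.86 among members with counts, and 1.06 to 1.29 without a library. DESeq2 size factors departed from TMM by up to 0.10 on the log2 scale in replicate 4, which cancels within a pair. Without the length offset 14 called pairs turned direction. Among named pairs this turned Il6ra/Gm42809 to -0.25 and Ccnd2/9330179D12Rik to -1.28, and, of pairs not called before, Sp3/Sp3os to -2.28 and Erp29/Tmem116 to -1.24. Around a difference of 0, Tk1/Afmid took 6.1e-05 with DESeq2, 0.0602 with no replicate block and -0.158 to 0.121 without a library, Sp3/Sp3os -0.0560 to 0.564 and Erp29/Tmem116 -0.0565 to 0.112 without a library, none of them called. Depth limits the 178 pairs with 1 to 19 counts and the 1489 members below a mean count of 10, which the tests leave out.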
